A study of Mus musculus with 4 samples.

Results

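Collagens VI, VIII, XII, XIV and XVI are the beaded, network-forming and fibril-associated collagens of connective tissue, and 8 of their chains were followed here in Sca-1 cells of failing and healthy mouse hearts. The chains were taken by gene symbol, as 8 of 18193 genes with probe sets of their own (Col6a1, Col6a2, Col6a3, Col8a1, Col8a2, Col12a1, Col14a1 and Col16a1), which gave 16 of the 45037 probe sets on the array, none of them shared with another gene. Cyc cells came from double-transgenic FVB mice aged 6 weeks that overexpress CyclinT1 and Gαq from the αMHC promoter and develop heart failure, and Wt cells from wildtype littermates of the same strain and age without heart disease. That promoter is active in cardiomyocytes, so the Sca-1 cells are not the cells meant to express the transgenes. Cells were sorted from hearts with magnetic beads against Sca-1, a surface protein of resident progenitor cells, each array held RNA of 1 pool of cells from 2 to 3 mice of either sex, and there were 2 pools per genotype. Replicate numbers 1 and 2 are called experiments 1 and 2 here, with 1 Cyc and 1 Wt pool each.

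Collagen VI is built of 3 different chains, α1, α2 and α3, which assemble into beaded filaments around cells and next to basement membranes. Collagen VIII is a short-chain collagen that forms open networks in vessel walls and in the cornea, from α1 and α2 chains in mixed or single composition. Collagens XII, XIV and XVI do not form fibrils of their own but attach to the surface of fibrils or microfibrils built by other molecules, and XII and XIV sit on fibrils of collagen I. In the heart these collagens lie in the interstitium, which widens during fibrosis.

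Promoter sequences of RefSeq (build GRCm38.p6) were matched by symbol for 6 of the 8 genes, in 7 windows of 250 bases before the transcription start. They are shown for 2 pairs of chains, α1 and α2 of collagen VI, which had the closest profiles over the pools among the 3 chains of that collagen, and α1 and α2 of collagen VIII, which were far apart on the arrays. Capitals mark matches on either strand to 5 motifs that were searched, the TATA box (TATAAA), the CCAAT box (CCAAT), the GC box (GGGCGG), the AP-1 element (TGANTCA) and the TEAD element (GGAATG). Col6a1 and Col6a2 lie on the minus strand of chromosome 10 (chr10:76726045-76726294 and chr10:76623631-76623880) with no protein-coding gene between them, Col8a1 on the minus strand of chromosome 16 (chr16:57754738-57754987) and Col8a2 on the plus strand of chromosome 4 (chr4:126286544-126286793).
Col6a1: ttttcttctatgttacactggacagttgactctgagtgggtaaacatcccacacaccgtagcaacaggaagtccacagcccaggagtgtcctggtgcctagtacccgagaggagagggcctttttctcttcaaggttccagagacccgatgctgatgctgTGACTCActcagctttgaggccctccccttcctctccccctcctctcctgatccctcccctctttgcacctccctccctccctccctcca
Col6a2: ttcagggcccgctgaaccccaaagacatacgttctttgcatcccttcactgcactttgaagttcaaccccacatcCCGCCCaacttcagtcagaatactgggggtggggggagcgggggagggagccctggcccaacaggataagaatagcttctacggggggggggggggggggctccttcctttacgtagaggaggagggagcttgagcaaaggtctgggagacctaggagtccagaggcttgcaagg
Col8a1: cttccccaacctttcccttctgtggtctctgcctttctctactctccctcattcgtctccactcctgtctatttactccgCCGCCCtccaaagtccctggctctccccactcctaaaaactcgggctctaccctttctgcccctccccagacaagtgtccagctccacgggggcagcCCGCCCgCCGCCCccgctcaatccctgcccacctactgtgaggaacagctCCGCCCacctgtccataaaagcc
Col8a2: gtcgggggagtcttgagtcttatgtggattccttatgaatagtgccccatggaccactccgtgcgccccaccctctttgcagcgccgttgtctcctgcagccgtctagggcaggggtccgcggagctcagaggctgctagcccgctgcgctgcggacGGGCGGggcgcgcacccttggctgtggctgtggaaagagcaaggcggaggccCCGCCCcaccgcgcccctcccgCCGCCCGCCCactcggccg

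The Col8a1 and Col8a2 windows each held 4 matches to the GC box, of which the 2 nearest to the Col8a2 start overlap, and the Col6a1 window held none. RefSeq gives Col6a2 2 windows, of which the outer one is printed because the inner one lies within the longer transcript. The outer one held 1 GC box match and the inner one 3, so the count for Col6a2 depends on the start that is used. Among all 32851 promoter windows of this length, 32.7% had a GC box match. The AP-1 match of Col6a1, TGACTCA, began 90 bases before the start, and 6.75% of all windows had a match to this motif. No member window had a TATA box match, which 12.4% of all windows had, and every one of the 7 lay above the median GC content of 52.4%. The CCAAT box matched in Col16a1 alone, and the TEAD element in the inner of 2 Col6a2 windows alone, against 33.8% and 12.6% of all windows. These are matches of letters and were not related to the intensities.

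The deposited values are probe set intensities on a linear scale, which the authors normalized, and some lie below 0. Of the 45037 probe sets, 18460 and 21444 reached an intensity of 50 in the Cyc pools of experiments 1 and 2, and 19442 and 20200 in the Wt pools, and 50 is taken as the level near background. Poly-A controls, which are added before labelling, had a median of 250.1 in Cyc and 213.9 in Wt of experiment 1 and of -1.1 and 0.6 in experiment 2, which parts the arrays by replicate number and not by genotype. For tests, values below 0 were set to 0, 16 was added and log2 taken, and limma was run over the 20680 probe sets at 50 or more on at least 2 arrays. A probe set counts as called where it passed both thresholds of the study, 2-fold and an unadjusted p under 0.05. In this limma fit 412 probe sets had an unadjusted p under 0.05, and after Benjamini-Hochberg adjustment 0 did, so every call fails correction for multiple tests. With 2 pools per group, a p-value reflects the spread among these 4 arrays only, and precision is limited by their number.

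Of the 16 probe sets of these collagens 11 were tested, and every gene had at least 1 of them. Col8a2 was called higher in Cyc cells, the other 10 tested probe sets were not called, and none was called lower. Of all tested probe sets 0.735% were called higher and 0.116% lower. With the replicate number as a block, Col12a1 joined Col8a2, against 0.924% of all probe sets called higher and 0.227% lower in that fit. The Col8a2 and Col12a1 probe sets reached 50 in the Cyc pools only, so they entered the test through the group in which they were bright.

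The median log2 fold change (Cyc over Wt) of the 11 tested probe sets was 0.83, with a range from 0.33 to 2.42, and that of all tested probe sets was -0.02. The lower Cyc pool exceeded the higher Wt pool in 9 of the 11, as it did for 15.1% of all tested probe sets. In 2 of these 9, Col8a2 and Col12a1, only the Cyc pools reached the intensity of the filter. Passing the filter already fixed the order of these 2, and the largest log2 fold change, 2.42, was that of Col8a2. Col6a2 and Col14a1 each entered the 9 with both of their tested probe sets. Of the 8 genes, at their brightest probe set, 7 had this order, Col8a2 and Col12a1 among them, and Col6a3 did not. Since whole pools of cells were measured, more cells that make these collagens and more RNA per cell cannot be told apart.

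**Figure D1:**
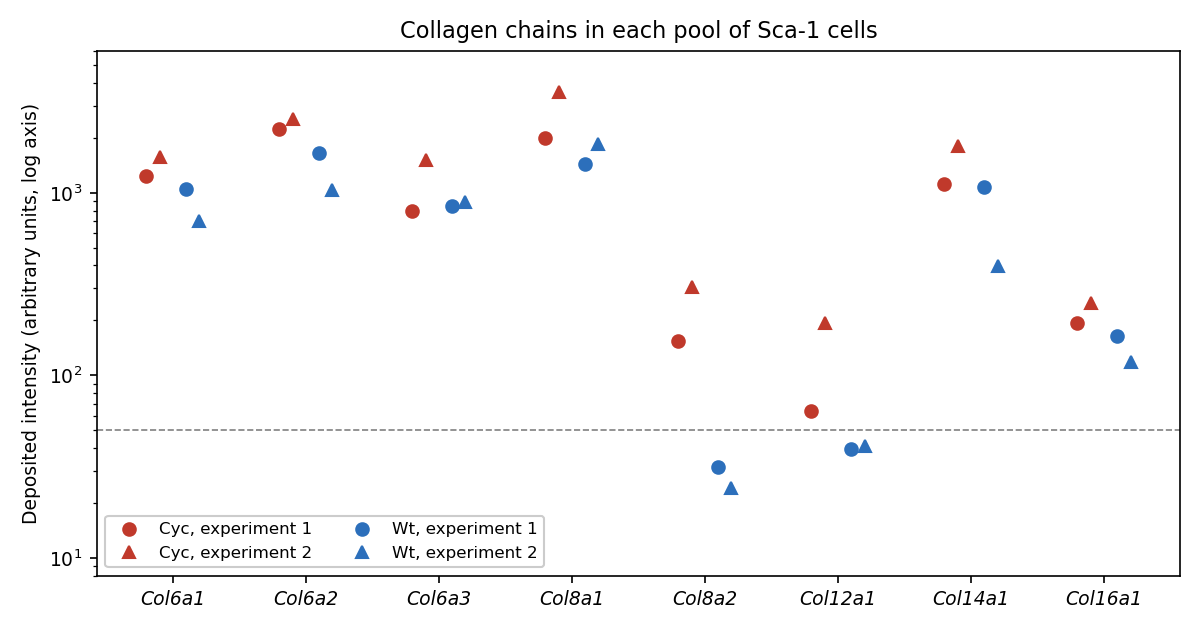
Deposited intensity (log axis) of the brightest probe set of each of the 8 collagen genes per pool. Red stands for Cyc and blue for Wt, a circle for experiment 1, a triangle for experiment 2 and the dashed line for 50. Both Cyc points are higher than both Wt points except for Col6a3, where the Cyc pool of experiment 1 (797.6) lies below both, and Col8a2 and Col12a1 lie below 50 in both Wt pools.

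Collagen VIII held the largest difference. Col8a2, the α2 chain, read 154.2 and 305.8 in Cyc cells, against 31.6 and 24.2 in Wt cells. The groups were well apart, with the lower Cyc pool above both Wt pools, which lay near background. Taking the Wt level as 50, the average of the Cyc pools was at least 4.34-fold higher. This bounds the ratio of the averages and leaves out the spread between pools, and the lower Cyc pool read 154.2. Col8a2 had a log2 fold change of 2.42 with a standard error of 0.38 (limma, unadjusted p = 0.00181, adjusted p = 1.0). Its confidence interval began at 1.42. With the block the standard error was 0.31 and the adjusted p was 0.299. It was called whichever pool was left out, with log2 fold changes from 1.96 to 2.88. When the arrays were also scaled to the same median before the block fit, which was added with the data in view, its adjusted p was 0.00066. In that fit 0.58% of all probe sets had an adjusted p under 0.05, and Col8a2 was the only chain of the 8 among them. Its probe set passed the filter through the Cyc pools alone, so its calls and p-values give no independent support for the direction.

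Col8a1, the α1 chain that pairs with α2 in collagen VIII, was read well above background by 2 probe sets. The brighter read 2009 and 3555 in Cyc cells, against 1440 and 1850 in Wt cells, with the lower Cyc pool just above the higher Wt pool. Its log2 fold change was 0.71 (95% confidence interval from -0.25 to 1.67), an interval that holds 0. The other had 779.4 and 1542 in Cyc and 539.3 and 807.1 in Wt cells, where the groups overlapped. The 2 probe sets gave nearly the same log2 fold change, 0.71 and 0.72. The dimmest, at 33.4 and 56.2 in Cyc and 9.5 and 17.7 in Wt cells, was above 50 in 1 pool and was not tested. With the block the unadjusted p of the 2 tested ones was 0.0186 and 0.0155, but neither reached 2-fold.

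Within each experiment both chains of collagen VIII were brighter in the Cyc pool. For Col8a1 the log2 difference was 0.48 in experiment 1 and 0.94 in experiment 2 at its brightest probe set. For Col8a2 the values were 1.84 and 3.0, but with both Wt readings under 50 their size is not well measured. The 95% confidence interval of Col8a2, from 1.42 to 3.42, overlapped that of Col8a1, and the difference between the chains was not tested.

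The 3 chains of collagen VI averaged higher in Cyc cells by less than 2-fold, and none of them was called. Col6a2, the α2 chain, read 2237 and 2527 in Cyc cells, against 1657 and 1042 in Wt cells, with no overlap. Its log2 fold change was 0.85 with a standard error of 0.31 (limma, unadjusted p = 0.0458, adjusted p = 1.0), short of the 2-fold threshold. A further Col6a2 probe set, whose x in the name marks probes that may bind other transcripts, had 866.0 and 1083 in Cyc and 647.3 and 443.3 in Wt cells. It gave 0.83 with a standard error of 0.30, so both readings of Col6a2 agree within their errors.

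Col6a1, the α1 chain, read 1236 and 1569 in Cyc cells, against 1051 and 703.6 in Wt cells. The groups did not overlap, and the log2 fold change of 0.69 had a 95% confidence interval from -0.12 to 1.5. Col6a3, the long α3 chain, differed from both, with 797.6 and 1505 in Cyc and 849.7 and 892.0 in Wt cells. The Cyc pool of experiment 1 was the lowest of the 4 and that of experiment 2 the highest. Its log2 fold change was 0.33 (95% confidence interval from -0.64 to 1.30), and without the Cyc pool of experiment 2 the sign turned to -0.12. In the block fit the unadjusted p was 0.0488 for Col6a1, 0.0199 and 0.0216 for the Col6a2 probe sets and 0.259 for Col6a3 (limma). None of them reached 2-fold, and the smallest adjusted p was 0.666.

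The 3 chains also parted between the experiments. In experiment 1 the log2 differences of Col6a1, Col6a2 and Col6a3 were 0.23, 0.43 and -0.09, and in experiment 2 they were 1.14, 1.27 and 0.74. From the first to the second Wt pool Col6a1 and Col6a2 were lower by 0.57 and 0.66 on the log2 scale, which Col6a3 was not (0.07 higher). After subtraction of each profile's own mean, Col6a1 and Col6a2 differed by a root mean square of 0.11 over the 4 arrays, against 0.35 between Col6a1 and Col6a3 and 0.45 between Col6a2 and Col6a3. This is a description of 4 arrays with no test.

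Among the fibril-associated collagens, Col12a1 was dim. Its tested probe set read 64.2 and 193.3 in Cyc cells, against 39.6 and 40.9 in Wt cells, and both Wt pools lay near background. Taking the Wt level as 50, the average of the Cyc pools was at least 2.23-fold higher on this reading. This bound, too, leaves out the spread between pools, and the lower Cyc pool read 64.2. Col12a1 had a log2 fold change of 1.20 with a standard error of 0.50 (limma, unadjusted p = 0.0657, adjusted p = 1.0). With the block it passed both thresholds (unadjusted p = 0.0154, adjusted p = 0.664), and it also did with quantile normalization (0.0122) or scaling to the same median (0.0115). Much of it rested on the Cyc pool of experiment 2, without which the log2 fold change was 0.51, against 1.90 without the Cyc pool of experiment 1. This probe set, too, passed the filter through the Cyc pools alone, so these results give no independent support for the direction.

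The other 3 Col12a1 probe sets were below 50 in all pools and were not tested. One, whose a in the name marks transcript variants of 1 gene, had 49.0 and 41.8 in Cyc and 33.5 and 23.8 in Wt cells, in the same order as the tested one. The remaining 2 lay between -9.0 and 5.8, with no order of the groups.

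Col14a1, which encodes the undulin-type collagen XIV of fibril surfaces, varied most between the experiments. At its brighter probe set it read 1114 and 1800 in Cyc cells, against 1078 and 398.5 in Wt cells. In experiment 1 the Cyc and Wt pools were nearly equal, with a log2 difference of 0.05, and in experiment 2 it was 2.13. The fit gave 1.09 with a standard error of 0.55 (limma, unadjusted p = 0.111), past 2-fold but not past the p.

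The second Col14a1 probe set had 556.4 and 973.3 in Cyc and 553.0 and 222.6 in Wt cells, with log2 differences of 0.01 and 2.05. Both probe sets thus gave the same pattern, 2 like pools in experiment 1 and a Cyc pool over 4 times as bright as the Wt pool in experiment 2 (ratios of 4.52 and 4.37). The low reading was that of the Wt pool of experiment 2. Without it the log2 fold change of the brighter probe set was 0.39. Both probe sets were called without the Wt pool of experiment 1 (1.79 at the brighter), without the Cyc pool of experiment 1 (1.43) and with the block after scaling to the same median (1.11, unadjusted p = 0.00658, adjusted p = 0.21 in limma). The remaining probe set lay between -10.4 and 17.7 and was not tested.

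Col16a1, a chain of a minor fibril-associated collagen that is found close to cells, read 192.5 and 250.7 in Cyc cells, against 165.0 and 119.0 in Wt cells. The groups did not overlap but were near each other, with a log2 fold change of 0.59 (95% confidence interval from -0.15 to 1.34). The difference was 0.20 in experiment 1 and 0.98 in experiment 2. Its profile over the pools was close to that of Col6a1, at a root mean square difference of 0.07, the smallest of any 2 of the 8 genes.

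**Figure D2:**
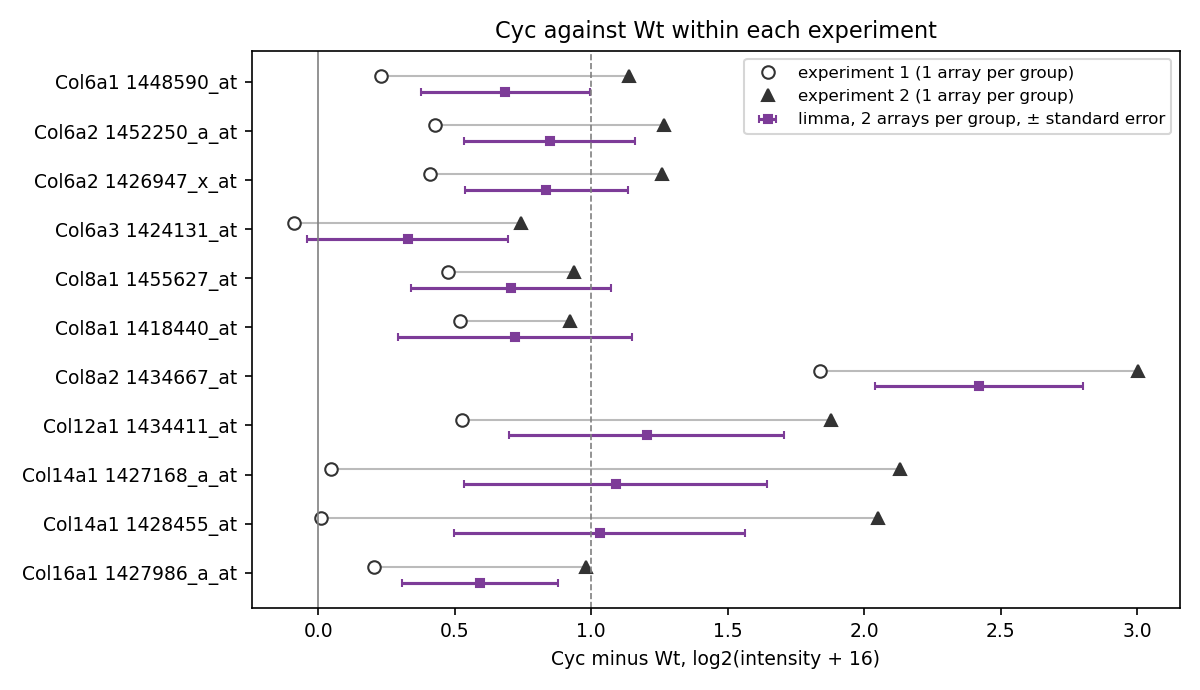
Cyc minus Wt on the log2(intensity + 16) scale for the 11 tested probe sets, with open circles for experiment 1, triangles for experiment 2 and squares with bars for the limma estimate and its standard error (2 pools per group). All 11 lie further right in experiment 2, where the values run from 0.74 to 3.0 (those of Col8a2 and Col12a1 against Wt readings under 50), and Col6a3 alone is below 0 in experiment 1, at -0.09.

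The size of the difference between Cyc and Wt cells was larger in experiment 2 for all 11 tested probe sets. The median log2 difference was 0.41 in experiment 1 and 1.26 in experiment 2, against -0.10 and 0.06 over all tested probe sets. In experiment 1 the Cyc pool was brighter in 10 of the 11 and past 2-fold in 1 (Col8a2), and 0.885% of all tested probe sets were higher by 2-fold or more. In experiment 2 it was brighter in 11 and past 2-fold in 7, against 3.26% of all. Each experiment has 1 array per group, so these differences have no test.

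Both genotypes took part in this. From experiment 1 to experiment 2 the Cyc intensity was higher in 11 of the 11 tested probe sets, with a median log2 difference of 0.79 against 0.38 over all tested ones. The Wt intensity was lower in 7 of the 11, with a median of -0.42 against 0.19 over all, and 1 of the 7 is Col8a2. The Wt pool of experiment 2 was the lower one for Col6a1, Col6a2, Col14a1 and Col16a1 and the higher one for Col8a1 and Col6a3. Col8a2 and Col12a1 lay under 50 in both Wt pools, so no direction between these pools is read for them.

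**Figure D3:**
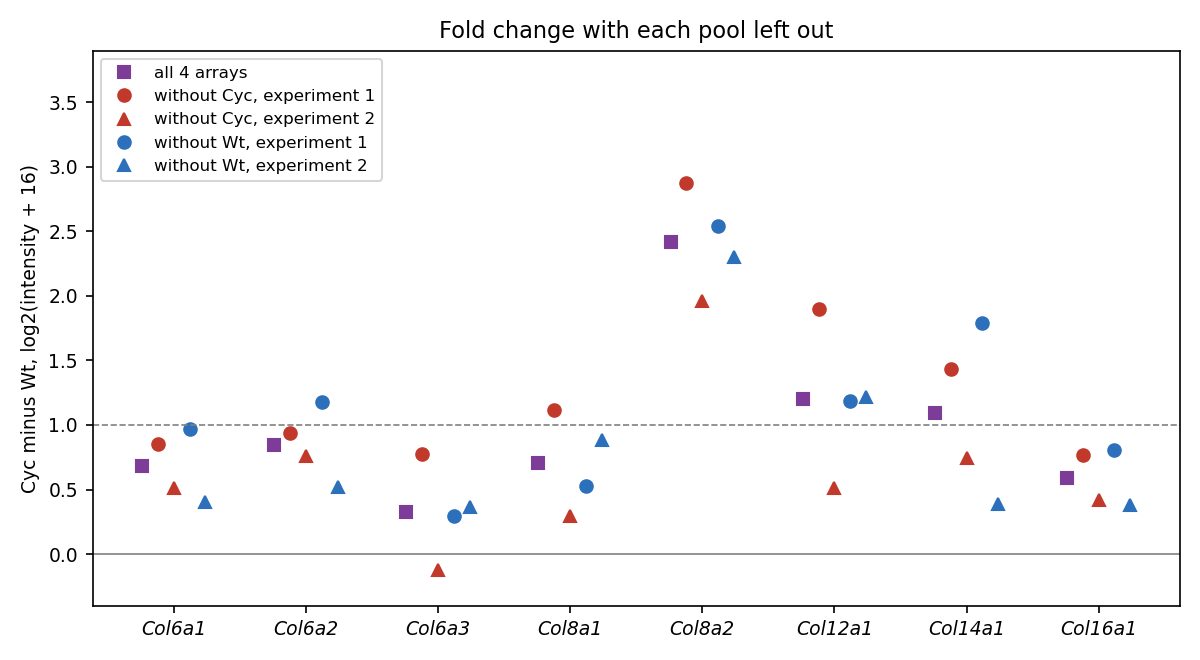
Log2 fold change (Cyc over Wt, log2(intensity + 16)) of the brightest probe set of each gene with all 4 arrays (squares) and with 1 pool left out, red for a Cyc and blue for a Wt pool, circles for experiment 1 and triangles for experiment 2. Col8a2 stays between 1.96 and 2.88, Col14a1 spans 0.39 to 1.79, and Col6a3 falls below 0 when the Cyc pool of experiment 2 is left out.

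Markers of several cell types moved between the same pools, and their part in these differences was not tested. The summed intensity of 6 fibroblast markers (Pdgfra, Tcf21, Dpt, Lum, Dcn and Col1a1) was 22203 and 21966 in the Cyc pools and 25398 and 16424 in the Wt pools, lowest in the Wt pool of experiment 2. All 6 were tested, Col1a1 was called higher in Cyc cells and 5 were not called, and the median log2 fold change was 0.17. Those of smooth muscle and pericytes (6 of 6 tested, none called) summed to 12327 and 23759 in Cyc and to 10561 and 15031 in Wt cells, highest in the Cyc pool of experiment 2. In either experiment the Cyc pool was the brighter one for 6 of 6, with a median log2 fold change of 0.56.

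The summed intensity of 4 airway markers was 179.1 and 15949 in Cyc and 2513 and 38.3 in Wt cells, and 2 of them were tested, Foxj1 being under 50 in all pools. That of 5 mesothelial markers was 594.3 and 1944 in Cyc and 1091 and 672.4 in Wt cells, with all 5 tested and none called. For 5 leukocyte markers it was 293.6 and 1024 in Cyc and 302.0 and 264.8 in Wt cells, with 2 tested and Cd79a and Cd3e under 50 in all pools. The Cyc pool of experiment 2 was the highest for all 3 lists.

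The 5 endothelial markers summed to 36041 and 38293 in Cyc and to 38739 and 37344 in Wt cells, with none called. These sums were nearly level, but the median log2 fold change was -0.22. In either experiment the Cyc pool was the brighter one for 1 of 5, Fabp4, which was the brightest of them. The 5 cardiomyocyte markers summed to 1712 and 1137 in Cyc and to 2476 and 1551 in Wt cells, with Myl2 called lower. Of 4 Schwann cell markers 2 could be named, S100b and Sox10, and both were under 50 in all pools, as were 4 of 5 markers of cartilage and tendon (Acan, Scx, Tnmd and Chad). The gene of Sca-1 was not analysed here.

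The fibril-forming collagens, on whose fibrils collagens XII and XIV sit, gave values in the same range. Of 11 such chains 7 were tested, and Col5a2 and Col1a1 were called higher in Cyc cells, at log2 fold changes of 1.22 (standard error 0.33) and 1.16 (0.40), each with an adjusted p of 1.0 in limma. The brightest, Col3a1 and Col1a2, had 0.44 and 0.69 and were not called. The median of the 7 was 0.69, with 0.23 in experiment 1 and 1.41 in experiment 2, beside 0.78, 0.33 and 1.20 for the 8 chains described here at their brightest probe sets. Col2a1, Col11a1, Col11a2 and Col24a1 were under 50 in all pools.

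Other chains of the beaded, network-forming, fibril-associated and transmembrane collagens were mostly near background. Of 14 listed 12 could be named on the array and 10 were under 50 in every pool, among them Col6a4 and Col6a5, further chains of collagen VI, Col10a1, the network collagen of growth plate cartilage, and the 3 chains of collagen IX. Col13a1, a transmembrane collagen, had 77.2 and 89.6 in Cyc and 78.0 and 59.7 in Wt cells, and Col25a1 had 13.6 and 79.0 in Cyc and 23.1 and 50.4 in Wt cells. Neither was called, and the groups overlapped for both.

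Of 12 receptors for collagens 9 were tested and none was called (median log2 fold change 0.44). The brightest, the integrin chains Itgb1 and Itga1, had 0.44 and -0.08. Antxr1, an anthrax toxin receptor that binds collagen VI, had 668.3 and 1165 in Cyc and 814.6 and 513.3 in Wt cells, and Cspg4, the NG2 proteoglycan that also binds it, had 54.7 and 129.6 in Cyc and 51.3 and 64.9 in Wt cells. The Cyc pool was the dimmer one for Antxr1 in experiment 1 (-0.28 on the log2 scale) and the brighter one in experiment 2 (1.16). Antxr2, a further anthrax toxin receptor of the list, had 477.2 and 608.3 in Cyc and 426.4 and 466 in Wt cells, with no overlap. Antxr1, Antxr2 and Cspg4 were chosen for mention after their values had been seen.

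Of 14 matrix proteins that bind these collagens 13 were tested, Fmod and Comp were called higher and 11 were not called (median 0.35). Comp, the cartilage matrix protein that binds collagens XII and XIV, was higher by 2.55 on the log2 scale (standard error 0.25), with 2.45 and 2.65 in the 2 experiments. Fmod, a proteoglycan of fibril surfaces, had 2.65 (0.85), with 1.23 and 4.08. The brightest members, Dcn and Bgn, had -0.01 and 0.77, and Dcn, a proteoglycan that binds collagens VI and XIV, overlapped between the groups at 10929 and 11021 in Cyc and 13443 and 9031 in Wt cells.

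Of 19 genes of collagen folding and processing 16 could be named and 15 were tested, with none called and a median log2 fold change of 0.35. With the block P3h2, a prolyl hydroxylase, was called higher, at 97.8 and 196.3 in Cyc and -23.0 and 86.2 in Wt cells. Serpinh1, the collagen chaperone, and Ppib, a prolyl isomerase, were among the brightest and had 0.07 and 0.36. Of 10 genes of collagen breakdown 8 were tested and Ctsk, the collagen-cleaving cathepsin K, was called higher, at 288.5 and 351.9 in Cyc and 211.4 and 106.4 in Wt cells. With the block Mmp3, the metalloproteinase stromelysin, was called as well, at 59.8 and 120.8 in Cyc and 44.0 and 8.8 in Wt cells. The median of that list was 0.69, with 0.06 in experiment 1 and 0.95 in experiment 2.

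**Figure D4:**
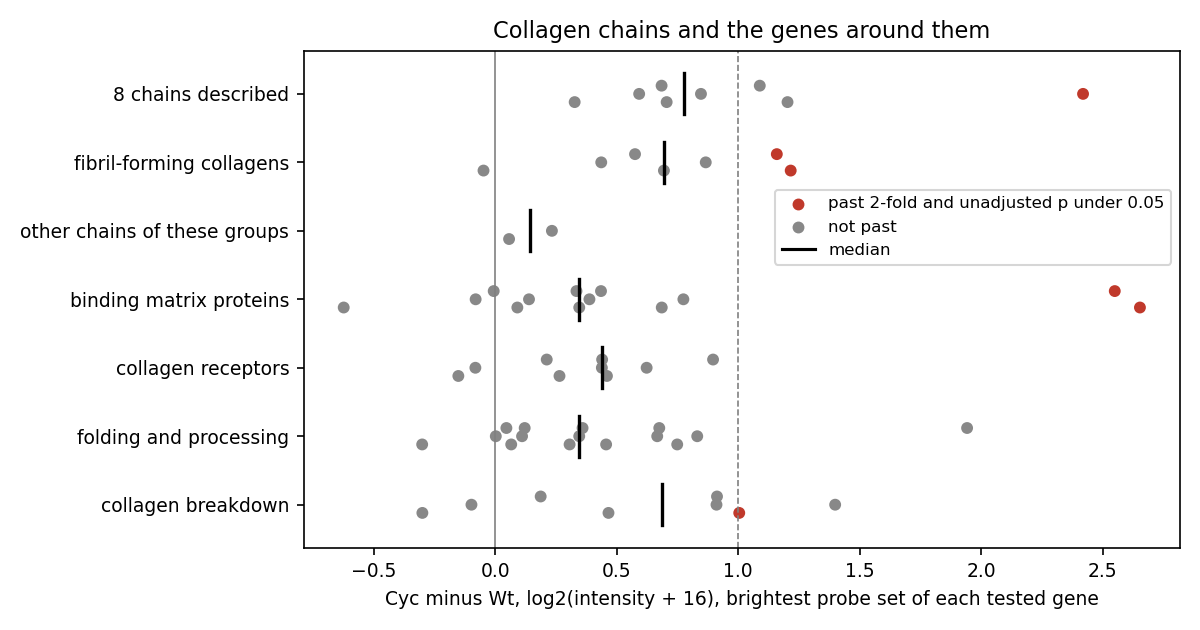
Log2 fold change (Cyc over Wt, log2(intensity + 16)) of each tested gene at its brightest probe set, by list, with red points past 2-fold and an unadjusted p under 0.05 and a black line at the median of the list. The medians run from 0.15 for 2 tested genes of the other chains to 0.78 for the 8 chains described, and Col8a2 at 2.42, Comp at 2.55 and Fmod at 2.65 are the points furthest to the right.

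Some genes had profiles over the 4 pools much like those of single chains, measured as the root mean square difference of log2 values after removal of each profile's mean. Nearest to Col8a2 were Itgbl1, an integrin-like secreted protein (0.16), Ltbp2, a protein of elastic microfibrils (0.19), and Sfrp2, a secreted modulator of Wnt signaling (0.24). Nearest to Col12a1 were Bst2 (0.08), the tetherin of enveloped viruses, Nox4 (0.11), an oxidase that makes reactive oxygen species, and Slc40a1 (0.15), the cellular iron exporter. Nearest to Col14a1 were Tmem119, Anxa8 and Cygb, at 0.12 to 0.14.

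For Col6a1, Col6a2, Col6a3, Col8a1 and Col16a1 the 3 nearest genes lay within 0.05. Col27a1, a fibril-forming chain, was among the 3 nearest to Col6a1 at a dimmer probe set of its own, with 59.7 and 86.2 in Cyc and 51.7 and 28.6 in Wt cells. Sod3, an extracellular superoxide dismutase, was the nearest to Col16a1, with 152.2 and 212.8 in Cyc and 133.6 and 101.4 in Wt cells. With 4 arrays and 20680 probe sets, close matches exist for most profiles, and nothing about shared control follows from them.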

How the data were processed

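Total RNA (250 ng per pool) of freshly isolated Sca-1 cells was labelled and hybridised to Affymetrix mouse whole-genome arrays, 2 for Cyc and 2 for Wt. The deposited intensity values, 1 per probe set and array, had been normalized by the authors in Resolver 7.2 on a linear scale. Values below 0 show that a background was subtracted, by a method that is not given in the sources used here. They ran from -517 to 19512, and array medians over the tested probe sets differed by at most 0.47 on the log2(intensity + 16) scale. They were not normalized again.

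Of 45101 rows, 64 controls were left out. Platform annotation gave 34945 probe sets 1 symbol, 932 several and 9160 none. Values below 0 were set to 0, 16 was added and log2 taken. limma 3.58.1 (R 4.3.3) was run on probe sets at 50 or more on at least 2 arrays (2 residual and 2.68 prior degrees of freedom, two-sided, Benjamini-Hochberg over 20680 probe sets). Where both pools of a group lay under 50, the geometric mean of the other group over 50 is given as a lower bound. It bounds the ratio of the averages and leaves out the spread between pools. Log2 fold changes with 16 added understate those of dim genes. The Resolver error model was not run.

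Replicate numbers were taken as the study's 2 independent experiments, since the labels number the pools in this way and the poly-A controls part them. The correlation between the 2 genotypes of the deviations from the group mean, over tested probe sets, was 0.447 for arrays of the same number. Members, gene lists and the rule for named genes (all member probe sets, list members that were called or the 2 brightest, and the 3 genes nearest in profile) were chosen with earlier results of these data known. The fit was tested on simulated data with independent arrays. These had no shared effect of the replicate number and no filter by intensity, so they cannot check how the fit deals with either. The alternatives were other pseudocounts, filters and scalings, the block, an intensity trend and the ratio of arithmetic means. Others were the mean over the probe sets of a gene, leaving out each pool, and an ordinary t-test on the log2 values. That t-test is not the study's array test, which used the Resolver error model.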

Additional observations from a re-analysis of the deposited data

How the results depend on the processing

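Among the 8 collagen genes the number of probe sets called higher in Cyc cells was 1, and none was called lower in any of the settings tried. It was 2 without a filter (Col8a2 and a dim Col8a1 probe set), with quantile normalization, with scaling to the same median and with the replicate block (Col8a2 and Col12a1 each time). It was 2 and 4 when the block was combined with quantile normalization and with scaling to the same median, both chosen after the data had been seen, the 4 being Col8a2, Col12a1 and both Col14a1 probe sets. Leaving out 1 pool gave 1 to 6, the highest without the Cyc pool of replicate 1 and 4 without the Wt pool of replicate 1. These fits set 1 experiment against both and leave 1 pool in a group, which is assumed to vary like the other group. Col8a2 was called in all of them. The median log2 fold change of the tested member probe sets ran from 0.52 to 1.12 over the settings. Single probe sets were rated unchanged in 162 of their alternative values, 15 became calls, and 1 turned. The rating went by sign and side of the thresholds, except for ratios of arithmetic means, which have no test. Those were rated by sign and distance from the main value, and for both Col14a1 probe sets they were 0.98, short of 2-fold. The value that turned was that of Col6a3, which was -0.12 when Cyc replicate 2 was left out and at most 0.78 when another pool was. The cause was not tested.

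Over all probe sets 152 were called higher and 24 lower. Higher ones were 93 with a pseudocount of 50 and 47 with the methods' t-test, and 117 to 581 with 1 pool left out. Lower ones were 46 with a pseudocount of 1, 37 without a filter, 7 with the t-test, 47 with the block, 48 and 54 with the block and quantile normalization or scaling to the same median, and 29 to 1050 with 1 pool left out. Adjusted p-values under 0.05 occurred for 1 probe set with the block, for 1 with the block and quantile normalization, and for 120 with the block and scaling. Signals near an intensity of 50 limit Col8a2 and Col12a1 to lower bounds on the ratio of the averages.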
